A study of Mus musculus with 8 samples.

Results

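A set of 7 miRNAs typical of leukocytes or of inflammatory signalling was followed in cardiomyocytes of failing and control mouse hearts: mmu-miR-142a-3p, mmu-miR-142a-5p, mmu-miR-223-3p, mmu-miR-150-5p, mmu-miR-146a-5p, mmu-miR-146b-5p and mmu-miR-155-5p, written below without the mouse prefix. They were chosen by name, and all 7 were present among the 697 mature miRNAs counted. The libraries came from male mice without a stated strain, which had either sham surgery (4 libraries) or transverse aortic constriction (TAC, 4 libraries) at 2 months of age. TAC narrows the aortic arch and loads the left ventricle with pressure. Cardiomyocytes were isolated 14 weeks later by perfusing the heart with digestive enzymes, and each small RNA library came from the cells of 1 mouse. Such a preparation is enriched for myocytes but can keep other cells of the heart and its blood.

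The biology of these miRNAs falls into groups. miR-142 is made throughout the blood lineages, miR-223 is best known from granulocytes and other myeloid cells, and miR-150 from mature lymphocytes. The miR-146 genes and the miR-155 host gene are induced by NF-kB signalling. miR-146a damps that pathway by repressing Traf6 and Irak1, whereas miR-155 generally promotes inflammatory responses. Both are also made outside leukocytes, endothelial and muscle cells included. The comparison asks whether immune cell content or inflammatory miRNAs differed between TAC and sham preparations.

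The mature sequences are shown because the seed, bases 2 to 8 and here in capitals, largely sets which mRNAs a miRNA binds. They were taken from RefSeq (GRCm38.p6) for 6 of the 7 miRNAs, read 5′ to 3′.
miR-142a-5p: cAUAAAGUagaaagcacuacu
miR-142a-3p: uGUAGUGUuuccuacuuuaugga
miR-223-3p: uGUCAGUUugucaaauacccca
miR-146a-5p: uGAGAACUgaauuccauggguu
miR-146b-5p: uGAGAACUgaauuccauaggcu
miR-155-5p: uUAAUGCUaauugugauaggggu

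Of these, only miR-146a-5p and miR-146b-5p shared a seed, and no further miRNA among the 593 counted ones with a sequence carried any of these seeds. The miR-146 pair was the same at 20 of 22 positions. Counted from the 5′ end, with miR-146a-5p first, it differed by G18A and U21C, so a tag that ends before the first of these positions fits both. How the authors counted tags that fit several miRNAs is not given in the sources used here, and the split between the pair is uncertain to that extent. The miR-142 arms are the strands of a single hairpin, at chr11:87756867-87756887 (5p) and chr11:87756903-87756925 (3p) on the plus strand, within an intron of the noncoding host gene Mir142hg. miR-146a-5p lies at chr11:43374435-43374456 on the minus strand, with no host gene annotated over its hairpin. miR-146b-5p lies at chr19:46342790-46342811 on the plus strand, in an intron of Mfsd13a. miR-155-5p lies at chr16:84714143-84714165 on the plus strand, in an exon of the noncoding host Mir155hg. miR-223-3p lies at chrX:96242884-96242905 on the plus strand, in an exon of the noncoding transcript F630028O10Rik.

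The sham libraries held between 4005668 and 5392576 miRNA counts and the TAC libraries between 5507169 and 7798943. Levels are given as CPM, a library's counts of a miRNA per 1000000 miRNA counts. The study used miR-19b-3p and miR-126a-3p as reference miRNAs and reports that its QPCR verified them as unaltered. The main fit followed that choice, multiplying the library sizes of the TAC group by 0.537. The edgeR p-values of this fit take the factor as known and leave out the spread of the reference miRNAs between libraries. This choice of scale moves every miRNA in the same direction. The median log2 fold change (TAC over sham) of the 223 tested miRNAs was 0.61 under the reference scaling, -0.082 under TMM and -0.29 with plain library totals. By library totals the reference miRNAs themselves were lower in TAC, with log2 fold changes of -0.80 for miR-126a-3p (adjusted p = 0.0134) and -1.0 for miR-19b-3p (adjusted p = 0.00511). The rule for calling any miRNA changed was a Benjamini-Hochberg adjusted p below 0.05, over all 223, and a fold change above 1.7.

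The cell identity of the preparations was checked with marker miRNAs. The 5 cardiomyocyte markers (miR-1a-3p, miR-133a-3p, miR-208a-3p, miR-208b-3p and miR-499-5p) summed to between 160712 and 198133 CPM in sham and between 194455 and 245941 CPM in TAC. Non-myocyte markers were present in every library. The 2 endothelial arms of miR-126a summed to between 49248 and 72051 CPM in sham and between 29274 and 34557 CPM in TAC. miR-126a-3p is also a reference miRNA, so the reference scaling holds it near equal between groups (log2 fold change 0.10). Reference-scaled levels are therefore in part relative to an endothelial miRNA. The 5 fibroblast and smooth muscle markers summed to between 41702 and 49646 CPM in sham and between 36697 and 43821 CPM in TAC. The 3 erythroid markers, miR-451a and both arms of miR-144, ranged from 418 to 1503 CPM in sham and from 43.8 to 550 CPM in TAC. None of these markers was at 0 in any library.

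The 7 miRNAs together made up a small share of the miRNA counts. Their share averaged 0.426% ± 0.0834 in sham against 0.329% ± 0.0225 in TAC (SD over 4 libraries each), which is -0.0967 percentage points from sham to TAC. The lowest sham library, replicate 1 at 0.318%, lay inside the TAC range of 0.306% to 0.360%. Among the 697 miRNAs by mean level, miR-146a-5p stood at rank 44, miR-150-5p at 60, miR-142a-5p at 76, miR-146b-5p at 99, miR-155-5p at 124, miR-223-3p at 207 and miR-142a-3p at 241. Between neighbours in this order, only miR-150-5p and miR-142a-5p overlapped across the sham libraries. In TAC the ranges of miR-142a-5p and miR-146b-5p overlapped, as did those of miR-223-3p and miR-142a-3p.

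**Figure D1:**
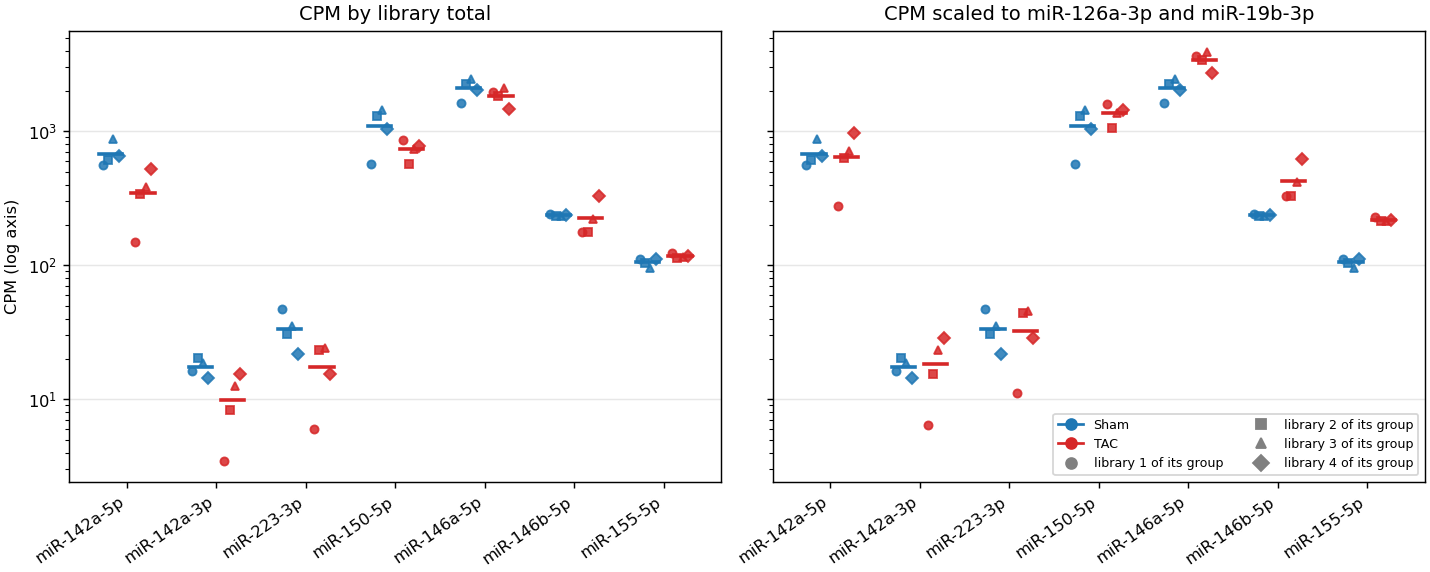
Levels of the 7 miRNAs in each of the 4 sham (blue) and 4 TAC (red) libraries, as CPM on a log axis; bars mark group means and symbols the library number within its group. Left, by library total, the TAC values of miR-142a-5p lie below all sham values, as for 27.4% of all tested miRNAs. Those of miR-155-5p lie above all sham values, as for 3.59%. Right, the TAC values are divided by the reference factor, and those of miR-142a-5p overlap sham. There the TAC values of miR-146a-5p, miR-146b-5p and miR-155-5p lie above all sham values, as for 54.7% of all tested miRNAs.

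None of the blood-lineage miRNAs tested was called changed in TAC by edgeR under the reference scaling, TMM or library totals. miR-142a-5p, the more abundant arm of the miR-142 hairpin, was at 560, 613, 870 and 653 CPM in sham replicates 1 to 4. In TAC replicates 1 to 4 it was at 148, 339, 381 and 522 CPM. Every TAC library was thus below every sham library, with means of 674 ± 136 and 348 ± 154 CPM (SD, n = 4 each) and a log2 difference of -1.07 (two-sided exact permutation test, unadjusted p = 0.0286, the smallest that 4 against 4 libraries allow). By library totals, 27.4% of all tested miRNAs were below in this way, so the pattern was common to many miRNAs. In the edgeR quasi-likelihood fit by library totals the log2 fold change of miR-142a-5p was -0.95 with an adjusted p of 0.0593, which misses the threshold. Under the reference scaling the TAC libraries ran from 276 to 973 CPM and overlapped sham (exact permutation p = 0.800). The edgeR log2 fold change was then -0.057 ± 0.32 (SE), with an adjusted p of 0.889. Relative to the median of all tested miRNAs it stood at -0.66 on the log2 scale, and it ranked 18 from the lowest of 223.

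miR-142a-3p, the other strand of the same hairpin, was far rarer. It was at 16.2, 20.4, 18.5 and 14.5 CPM in sham and at 3.45, 8.33, 12.5 and 15.4 CPM in TAC. TAC replicate 4 overlapped the sham libraries, and the log2 difference of -0.996 did not pass (exact permutation p = 0.0571). With a mean of 76 counts over the libraries it was under the minimum of 100 for the edgeR test. Its lowest value rests on 19 counts, with a 95% Wilson interval of 2.21 to 5.39 CPM that covers counting error only. The 5p arm exceeded the 3p arm between 29.9-fold and 46.7-fold in every library. Their log2 ratio averaged 5.26 ± 0.31 in sham against 5.18 ± 0.22 in TAC (SD over 4 libraries each), with a difference of -0.076 (exact permutation p = 0.686, adjusted p = 0.857 over the 10 ratios tested). The arms of miR-142a thus moved together across libraries, and their balance showed no difference beyond its spread.

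miR-223-3p, the myeloid miRNA, was at 47.1, 30.6, 35.1 and 21.7 CPM in sham. In TAC it was at 5.99, 23.5, 24.3 and 15.4 CPM. The groups overlapped, and the log2 difference of -1.09 did not pass (exact permutation p = 0.0857). The lowest library, TAC replicate 1, held 33 counts, with a Wilson interval of 4.27 to 8.41 CPM. The edgeR log2 fold change was -0.059 ± 0.40 (SE) under the reference scaling (adjusted p = 0.903), -0.74 under TMM (adjusted p = 0.226) and -0.96 by library totals (adjusted p = 0.110). It ranked 17 from the lowest of 223, next to miR-142a-5p.

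miR-150-5p, the lymphocyte miRNA, was the most abundant of the blood-lineage miRNAs. Its sham values were 571, 1304, 1436 and 1047 CPM, and its TAC values were 857, 566, 733 and 779 CPM. The lowest sham library lay inside the TAC range, and the log2 difference of -0.50 did not pass (exact permutation p = 0.171). Its edgeR log2 fold change was 0.33 ± 0.26 (SE) under the reference scaling (adjusted p = 0.289) and turned to -0.36 under TMM (adjusted p = 0.345). It ranked 52 from the lowest and stood at -0.28 on the log2 scale relative to the median of all tested miRNAs.

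Summed by library totals, these 4 blood-lineage miRNAs gave between 1195 and 2360 CPM in sham and between 937 and 1332 CPM in TAC, with means of 1815 ± 487 and 1109 ± 173 CPM (SD, n = 4 each). Under the reference scaling miR-150-5p, the largest part of the sum, averaged 1367 CPM in TAC against 1090 CPM in sham. For miR-142a-5p these means were 648 and 674 CPM. The lower sum in TAC therefore depends on the scaling. In bulk RNA of this kind, a different number of cells of a type and a different amount of the miRNA per cell cannot be told apart. Of the 3 blood-lineage miRNAs that were tested, 0 were called higher and 0 lower under the reference scaling, whose backgrounds were 36.8% of all tested miRNAs called higher and 0.897% called lower. At an unadjusted p below 0.05, 1 of these was lower under TMM (miR-142a-5p), against 17.5% of all tested miRNAs, and 2 by library totals (miR-142a-5p and miR-223-3p), against 33.2%. Without TAC replicate 1, the reference-scaled log2 fold changes turned to 0.20 for miR-142a-5p and 0.22 for miR-223-3p.

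miR-146a-5p, the NF-kB-induced miRNA that restrains the same pathway, was the most abundant of the 7. It was at 1637, 2264, 2478 and 2042 CPM in sham and at 1958, 1828, 2109 and 1468 CPM in TAC. By library totals the groups overlapped widely, with means of 2105 ± 359 and 1841 ± 274 CPM (SD, n = 4 each; exact permutation p = 0.314). Scaled to the reference miRNAs, every TAC library, from 2734 to 3928 CPM, was above every sham library (exact permutation p = 0.0286). The edgeR log2 fold change was 0.70 ± 0.16 (SE) under that scaling, with an adjusted p of 0.00432, but only 0.015 under TMM (adjusted p = 0.949) and -0.19 by library totals (adjusted p = 0.384). Its 1.63-fold change stayed under the 1.7-fold threshold, so it was not called. Without TAC replicate 4 its log2 fold change was 0.85 and it was called. It lay 0.098 above the median of all tested miRNAs on the log2 scale, at rank 130 of 223.

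miR-146b-5p, which shares the seed of miR-146a-5p but comes from another chromosome, had nearly equal levels in sham, at 242, 233, 232 and 236 CPM. In TAC it was at 177, 177, 223 and 332 CPM. The TAC libraries lay on both sides of the sham values, with a coefficient of variation of 32.1% against 1.95% in sham. By library totals the means were 236 ± 4.59 and 227 ± 73.0 CPM (SD, n = 4 each), and they did not differ beyond that spread (exact permutation p = 0.771). Under the reference scaling it was called higher, with an edgeR log2 fold change of 0.85 ± 0.21 (SE) and an adjusted p of 0.00588, whereas it was at 0.15 under TMM (adjusted p = 0.643) and at -0.052 by library totals (adjusted p = 0.864). The exact permutation test on reference-scaled CPM, which computes the factor anew in each arrangement, gave p = 0.0571. The call changed with single libraries: without sham replicate 2, sham replicate 3 or TAC replicate 4 the log2 fold change was under the 1.7-fold threshold, and without TAC replicate 4 it was 0.66. Leaving out a library also changes the reference factor, which is computed from the libraries that remain. Over all tested miRNAs, 72 and 59 were called higher without sham replicate 2 or 3. That compares with 82 in the main fit and 90 without TAC replicate 4. The high library was TAC replicate 4, in which miR-200c-3p, an epithelial miRNA, was also highest, at 98.7 CPM against 16.6 to 24.7 CPM in the other libraries. The part of other cells in the miR-146b-5p value of that library was not tested.

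miR-155-5p, the pro-inflammatory miRNA of activated leukocytes, had the narrowest range over the 8 libraries of all 7 miRNAs. It was at 111, 103, 94.8 and 111 CPM in sham and at 123, 114, 115 and 117 CPM in TAC. All 8 libraries lay within 1.3-fold of one another. Every TAC library was above every sham library, although the nearest values were 114 and 111 CPM, and the means were 105 ± 7.74 and 117 ± 4.10 CPM (SD, n = 4 each; exact permutation p = 0.0286). Only 3.59% of all tested miRNAs lay above in this way by library totals. The counting error of its single values was between 3.35% and 4.74%, so the gap between the nearest libraries is within counting error. Under the reference scaling it was called higher, with an edgeR log2 fold change of 1.06 ± 0.13 (SE) and an adjusted p of 1.63e-04. It kept its direction at 0.36 under TMM (adjusted p = 0.118) and 0.16 by library totals (adjusted p = 0.366), without passing there. It lay 0.45 above the median of all tested miRNAs on the log2 scale, at rank 189 of 223.

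**Figure D2:**
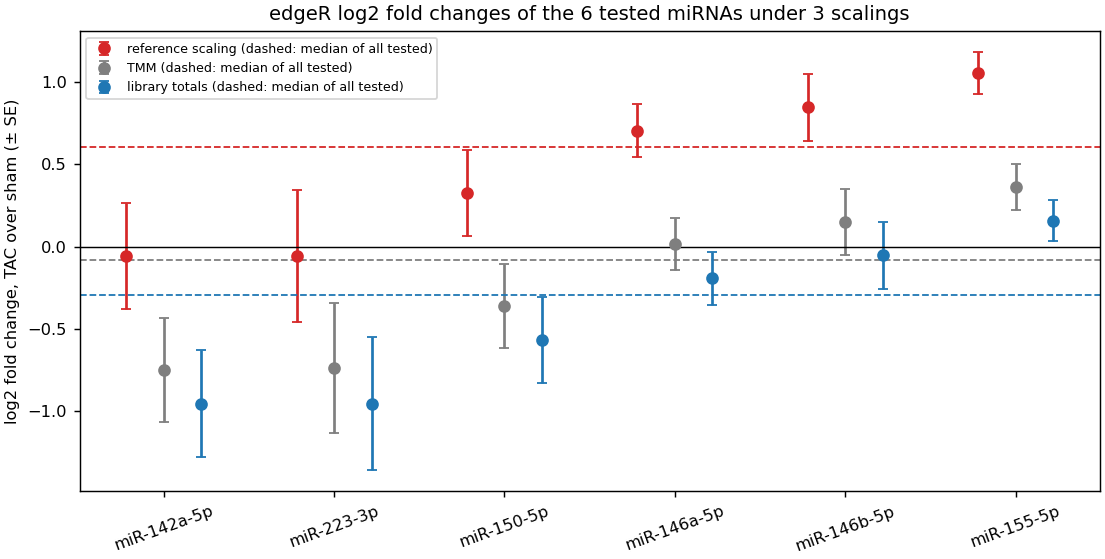
edgeR log2 fold changes (TAC over sham, 4 libraries each) of the 6 tested miRNAs with their SE, under the reference scaling (red), TMM (grey) and library totals (blue); dashed lines are the median of all 223 tested miRNAs under the same scaling. The distance of each miRNA from its dashed line is nearly the same under all 3 scalings: miR-142a-5p and miR-223-3p lie below it and miR-155-5p above it.

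In all, 2 of the 6 tested miRNAs were called higher under the reference scaling, miR-146b-5p and miR-155-5p, and 0 lower. The count is to be read against the 36.8% of all tested miRNAs called higher there. By the adjusted p alone 3 were higher, against 63.7% of all tested miRNAs. On reference-scaled CPM 3 of the 7 had every TAC library above every sham library, against 54.7%. Under TMM edgeR called 0 of the 6 in either direction, with backgrounds of 1.35% higher and 4.48% lower. At an unadjusted p below 0.05 TMM gave 1 higher (miR-155-5p) and 1 lower (miR-142a-5p) of the 6, with backgrounds of 12.1% and 17.5%. DESeq2 with its own size factors gave the same numbers, with backgrounds of 16.1% and 13.5%, and 0 past the adjusted threshold. By library totals edgeR called 0 as well, with backgrounds of 0.448% higher and 10.3% lower. At an unadjusted p below 0.05 it gave 0 higher and 2 lower, with backgrounds of 4.04% and 33.2%.

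Ratios of 2 miRNAs within a library do not depend on the scaling. A set of 10 was formed, and none passed after Benjamini-Hochberg adjustment over the 10. A lone ratio cannot do so, because the smallest exact p of 0.0286 then becomes 0.286. The ratio of miR-142a-5p to miR-1a-3p, the most abundant of the cardiomyocyte markers, was between 0.00508 and 0.00926 in sham and between 0.00122 and 0.00272 in TAC. It was lower in every TAC library, 0.329-fold on average, with a log2 difference of -1.60 (exact permutation p = 0.0286, adjusted p = 0.286). Leaving out any 1 library kept this log2 difference between -1.74 and -1.36. miR-1a-3p itself was higher in TAC under every scaling, with an edgeR log2 fold change of 1.44 under the reference scaling (adjusted p = 8.20e-05) and 0.54 by library totals (adjusted p = 0.0318). The other cardiomyocyte markers did not all follow it. By library totals miR-133a-3p stood at -0.10, miR-208a-3p at -0.28, miR-499-5p at 0.029 and miR-208b-3p at 0.81, none past the adjusted p. Ratios of miR-142a-5p to these markers were not formed, so its lower ratio holds for miR-1a-3p only. The ratio of miR-155-5p to miR-1a-3p differed by less, with a log2 difference of -0.37 (exact permutation p = 0.114).

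miR-142a-5p was also set against markers of other non-myocytes. Its ratio to the endothelial miR-126a-3p was 0.0217, 0.0142, 0.0172 and 0.0179 in sham and 0.00638, 0.0151, 0.0161 and 0.0253 in TAC (log2 difference -0.32, exact permutation p = 0.629). The TAC libraries spanned the whole sham range and went beyond it on both sides. Its ratio to the erythroid miR-451a gave a log2 difference of 0.64 (exact permutation p = 0.286), and of 0.33 without TAC replicate 1 or 1.02 without sham replicate 1. Its ratio to the sum of the 5 fibroblast and smooth muscle markers was between 0.0134 and 0.0175 in sham and between 0.00351 and 0.0119 in TAC, so that every TAC library was below. This last ratio was formed after the data had been seen, and its difference was not tested. The 10 tested ratios were themselves chosen with earlier results of these data known. Within the blood-lineage miRNAs, the ratio of miR-223-3p to miR-142a-5p differed by -0.021 on the log2 scale (exact permutation p = 1). That of miR-150-5p to miR-142a-5p differed by 0.57 (exact permutation p = 0.400), with 5.78 in TAC replicate 1 against 1.02 to 2.13 in the other libraries. Without TAC replicate 1 the difference was 0.12.

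The inflammatory miRNAs were set against each other and against miR-142a-5p in the same way. The ratio of miR-146a-5p to miR-146b-5p was 4.42 in TAC replicate 4 and between 6.76 and 11.1 in the other 7 libraries (log2 difference -0.087, exact permutation p = 0.886). miR-155-5p to miR-146a-5p gave a log2 difference of 0.35 (exact permutation p = 0.200), and of 0.22 without sham replicate 3. miR-146a-5p to miR-142a-5p was between 2.85 and 3.69 in sham and between 2.81 and 13.2 in TAC (log2 difference 0.88, exact permutation p = 0.143). TAC replicate 4 held the lowest value of all libraries and TAC replicate 1 the highest, and without TAC replicate 4 the difference was 1.23 (exact permutation p = 0.0286).

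**Figure D3:**
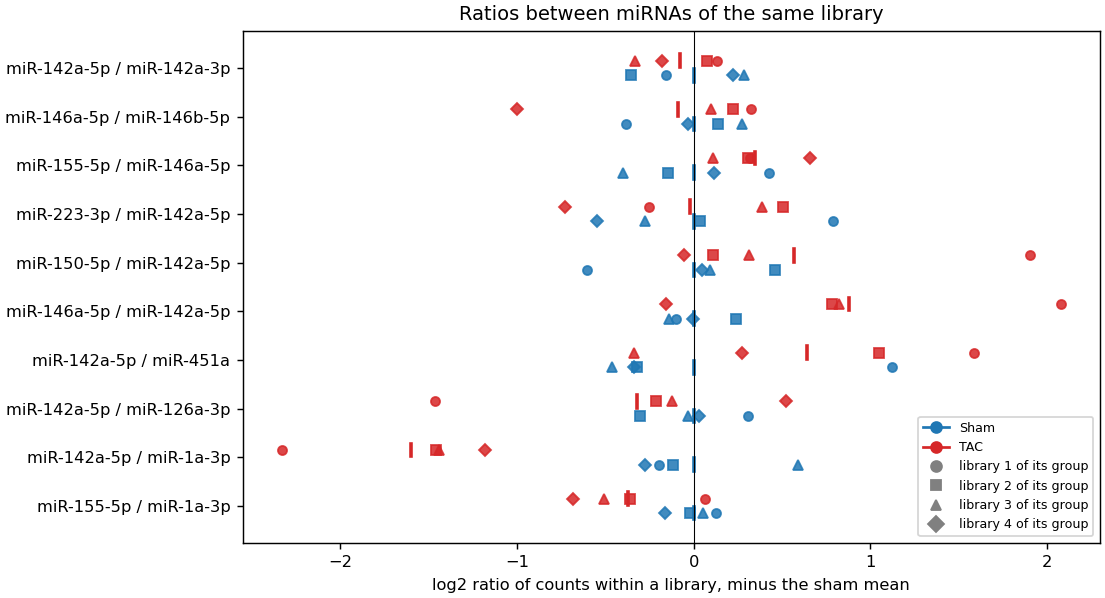
Log2 ratios of counts between 2 miRNAs of the same library, minus the sham mean of that ratio, for the 10 ratios formed; points are single sham (blue) and TAC (red) libraries and bars are group means. Only the ratio of miR-142a-5p to miR-1a-3p has all 4 TAC libraries on one side of all 4 sham libraries, with a mean log2 difference of -1.60. miR-1a-3p itself was higher in TAC, and ratios to the other cardiomyocyte markers were not formed.

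Library by library, the 7 miRNAs did not move as 1 set. TAC replicate 1 was the lowest TAC library for miR-142a-5p, miR-142a-3p and miR-223-3p, at -1.09, -1.30 and -1.32 from the TAC mean on the log2 scale, and for miR-146b-5p it was level with TAC replicate 2 (-0.31 each). It was above the TAC mean for miR-150-5p (0.24), miR-146a-5p (0.10) and miR-155-5p (0.072). Sham replicate 1 was the lowest sham library for miR-150-5p, at -0.85, and the highest for miR-223-3p, at 0.54. The erythroid markers were also lowest in these 2 libraries within their groups, with a sum of 43.8 CPM in TAC replicate 1 against 200, 550 and 526 CPM in TAC replicates 2 to 4, and 418 CPM in sham replicate 1 against 918 to 1503 CPM in the others. The part of retained blood in these values was not tested.

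**Figure D4:**
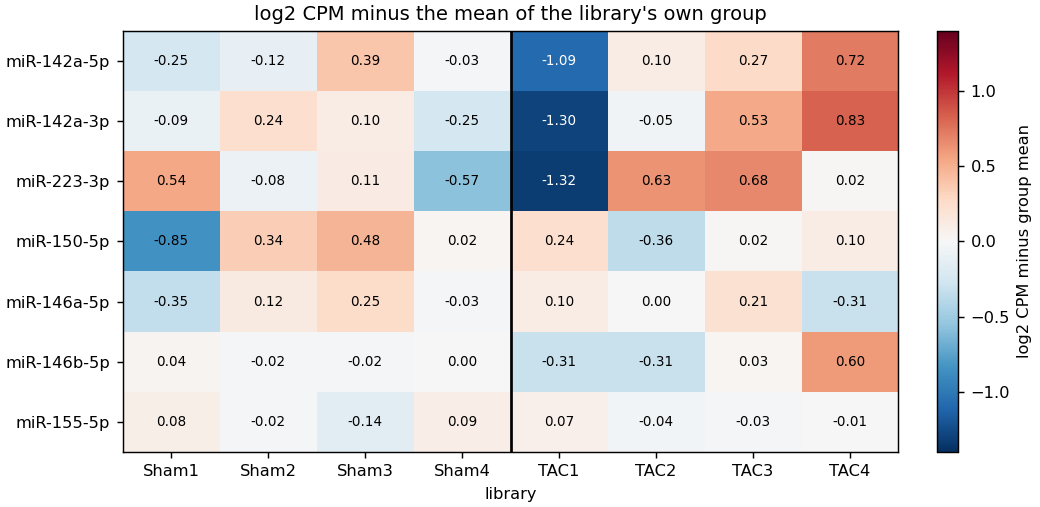
Log2 CPM of the 7 miRNAs in each library minus the mean of its own group, with each value printed; red is above and blue below the group mean. TAC replicate 1 is low for both miR-142a arms and miR-223-3p, sham replicate 1 is low for miR-150-5p, TAC replicate 4 is high for miR-146b-5p, and miR-155-5p stays within 0.15 of its group mean in all 8 libraries.

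The miRNAs most like each of the 7 were ranked by Pearson's r of log2 CPM after removing group means, over 8 libraries and 223 tested miRNAs. These values are descriptions, and the points share library totals and the single low or high libraries named above. miR-142a-5p was closest to the erythroid miR-144-3p (r = 0.95), miR-15b-5p (0.91) and the erythroid miR-451a (0.89). miR-142a-3p was closest to miR-26b-5p (0.94), its own 5p arm (0.92) and miR-144-3p (0.92). miR-144-3p was at 327, 647, 1078 and 714 CPM in sham and at 24.3, 141, 379 and 366 CPM in TAC, and so lowest in replicate 1 of each group.

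The others had different neighbours. miR-223-3p was closest to miR-434-5p (0.81), miR-194-5p (0.74) and miR-192-5p (0.67). miR-150-5p was closest to miR-676-3p (0.95), miR-204-5p (0.94) and miR-340-3p (0.93), and miR-146a-5p to miR-872-5p (0.98), miR-224-5p (0.92) and miR-24-2-5p (0.90). miR-146b-5p was closest to miR-100-5p (0.87) and to the epithelial miR-203-3p (0.87) and miR-200c-3p (0.86). Both were highest in TAC replicate 4 among the TAC libraries, but miR-203-3p, at 49.6 CPM there, was within its sham range of 43.7 to 53.6 CPM. miR-155-5p was closest to miR-181d-5p (0.88), miR-148a-5p (0.82) and miR-874-3p (0.81). Among the 7 themselves, the miR-142a arms had the highest r, 0.92, followed by miR-142a-3p with miR-146b-5p at 0.74 and with miR-223-3p at 0.71. miR-146a-5p and miR-146b-5p, in spite of their shared seed, had an r of -0.54.

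The opposite arms of the other hairpins were too rare to test. Over all 8 libraries miR-150-3p had 122 counts against 40329 of the 5p arm, miR-146b-3p 21 against 10625, miR-155-3p 19 against 5118 and miR-146a-3p 5 against 89134. miR-142a was thus the 1 hairpin of these 5 whose second arm was not nearly absent, with 608 against 22431.

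A further list held 13 miRNAs with known roles in immune cells or inflammation, of which 8 had enough counts to be tested. Under the reference scaling 5 passed the adjusted p, all higher, 3 of them were called higher and 0 lower, and their median log2 fold change of 0.61 equalled that of all tested miRNAs. These counts are close to the background, where 63.7% passed the adjusted p as higher and 36.8% were called higher. The 3 called were miR-125b-5p (1.02), which targets Tnf in macrophages, and the vascular pair miR-221-3p (1.12) and miR-222-3p (1.24). Under TMM only miR-125b-5p passed the adjusted p, with a log2 fold change of 0.33 (adjusted p = 0.0332). miR-21a-5p, abundant in macrophages and fibroblasts, was at 0.60 under the reference scaling (adjusted p = 0.0723) and at -0.089 under TMM (adjusted p = 0.818). miR-342-3p, enriched in lymphocytes and macrophages, was at 318 ± 32.8 CPM in sham against 206 ± 17.1 CPM in TAC (SD over 4 libraries each), with every TAC library below, as for 27.4% of all tested miRNAs. Its log2 fold change was 0.27 under the reference scaling (adjusted p = 0.0923) and -0.62 by library totals (adjusted p = 0.00979). By library totals miR-181a-5p (-0.50) and miR-9-5p (-0.84) also passed the adjusted p as lower, and the 3 miRNAs called above stood at 0.12, 0.22 and 0.35 without passing. At an unadjusted p below 0.05, 33.2% of all tested miRNAs were lower by library totals and 12.1% were higher under TMM. The share of all tested miRNAs past the adjusted p alone was not counted under either scaling, so these results are not read as particular to immune-linked miRNAs. The macrophage miRNAs miR-511-5p, miR-511-3p and miR-147-3p had mean counts of 9.75, 8.25 and 5.63 and were not tested.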

How the data were processed

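Small RNA was sequenced from isolated cardiomyocytes of 4 sham and 4 TAC mice. The authors deposited 1 table per library with whole-number tag counts for each mature mouse miRNA, without normalization. The submitters' processing notes name the build mm10 and StringTie 1.3.1; the aligner, the miRNA reference and the treatment of tags that fit several miRNAs are not given in the sources used here. Groups came from the sample labels, and no 2 libraries were identical. The study's methods give 1 mouse per library, and p-values measure the spread between these 8 libraries. Under the reference scaling the edgeR p-values do not include the uncertainty of the reference factor.

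The deposited counts were tested with edgeR 4.0.16 in R 4.3.3 (glmQLFit and glmQLFTest, group as the only term) on the 223 miRNAs with a mean above 100 counts, with Benjamini-Hochberg adjustment. Library sizes were miRNA totals, multiplied in TAC by 0.537. This factor is the ratio of mean CPM, TAC over sham, averaged geometrically over the study's reference miRNAs, miR-19b-3p and miR-126a-3p. The SE of a log2 fold change was its size over the root of F. The biological coefficient of variation was 0.255, while counting error of single values was below 5% except for miR-223-3p and miR-142a-3p. Counting intervals are 95% Wilson intervals and cover counting error only. Single values and within-library log2 ratios (pseudocount 0.5 counts for CPM) were compared by two-sided exact permutation over 70 arrangements. Only for reference-scaled values was a reference factor used, computed anew in each arrangement. Other settings tried were library totals, TMM, DESeq2 1.42.0, a reference factor for every library, either reference alone, other filters and folds, the replicate number as a block and each library left out; TMM with a library left out or with the block was added after seeing the data. The fits were tested on simulated data.

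Named were the 7 miRNAs, the references, ratio partners, opposite arms, the listed immune-linked and marker miRNAs, and the 3 miRNAs most correlated with each of the 7; miR-200c-3p also belongs to that last group. The 7 miRNAs, lists and ratios were chosen with earlier results of these data known. Sequences came from RefSeq and hosts from GENCODE vM21, both GRCm38. Python 3.11.15 with numpy 2.4.6, pandas 2.3.3 and matplotlib 3.10.9 made the rest.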

Additional observations from a re-analysis of the deposited data

Results flagged for a closer look

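Single libraries were set against the other 3 of their group for 18 series of values (the levels, the ratios and the summed share), in 36 groups, and 1 stood apart. The ratio of miR-142a-5p to the erythroid miR-451a was 6.47 in sham replicate 1 and between 2.15 and 2.38 in the other 3 sham libraries, with a gap of 0.909 of the group's range, past Dixon's 95% critical value for 4 samples. Chance alone is expected to mark about 5% of groups. In that library miR-451a was at 86.4 CPM against 257 to 404 CPM in the other sham libraries, while miR-142a-5p, at 560 CPM, was close to them.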

How the results depend on the processing

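The number of miRNAs called higher in TAC, 2 under the reference scaling, was 0 under TMM, library totals, DESeq2 with its own size factors, TMM with the replicate block and TMM without any 1 library. Over all tested miRNAs these settings called 3, 1, 5, 1 and between 1 and 4 higher, in this order, against 82 in the main fit. The number called higher was 1 with miR-126a-3p alone as reference, against 63 over all tested miRNAs. It was 3 with miR-19b-3p alone as reference, against 99, so the background moved with the reference as well. With a fold above 2 it was 1, for which the count over all tested miRNAs is not given here. With each library left out it ranged from 1 to 2, and it was 1 without sham replicate 2 or 3. Without TAC replicate 4 it stayed at 2, with miR-146a-5p in place of miR-146b-5p. The number called lower was 0 under every alternative run. Over all tested miRNAs, between 1 and 23 were called lower in the runs where these were counted. Directions turned as follows. miR-142a-5p stood at 0.045 and miR-223-3p at 0.044 with miR-19b-3p alone as reference. miR-150-5p stood at -0.36 under TMM, -0.57 by library totals and -0.30 with DESeq2's own size factors. By library totals miR-146a-5p stood at -0.19 and miR-146b-5p at -0.052. miR-142a-3p, -0.098 as a difference of mean log2 reference-scaled CPM, stood at 0.088 in edgeR both without a filter and with a mean above 10. With 1 library left out, log2 fold changes ranged from -0.32 to 0.34 for miR-142a-3p, -0.27 to 0.20 for miR-142a-5p, -0.28 to 0.26 for miR-223-3p and 0.23 to 0.40 for miR-150-5p. Adjusted p ranged from 0.00168 to 0.0165 for miR-146a-5p, 0.00304 to 0.0301 for miR-146b-5p and 1.23e-04 to 0.00165 for miR-155-5p. Log2 ratio differences then ranged from -0.19 to 0.020 for miR-142a-5p to miR-142a-3p, -0.23 to 0.22 for miR-146a-5p to miR-146b-5p, -0.20 to 0.24 for miR-223-3p to miR-142a-5p, 0.48 to 1.23 for miR-146a-5p to miR-142a-5p, 0.33 to 1.02 for miR-142a-5p to miR-451a, 0.12 to 0.78 for miR-150-5p to miR-142a-5p, 0.22 to 0.49 for miR-155-5p to miR-146a-5p, -0.60 to 0.063 for miR-142a-5p to miR-126a-3p (positive without TAC replicate 1) and -0.52 to -0.27 for miR-155-5p to miR-1a-3p (exact p = 0.0286 without TAC replicate 1). With 1 reference factor per library, edgeR again called miR-146b-5p and miR-155-5p higher, with 73 called higher over all tested miRNAs. The adjusted p was then larger than in the main fit, at 0.0238 for miR-146b-5p, 0.00707 for miR-155-5p and 0.0114 for miR-146a-5p. Apart from the scaling, the cause of these changes was not tested.

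The study's methods speak of 4 pairs of mice without saying what pairs them, and the labels give only numbers. Deviations of same-numbered libraries correlated between -0.37 and 0.32 over the 4 pairs, and 1 of 4 sham libraries correlated best with its own number. With the replicate block, 2 miRNAs were again called higher, and over all tested miRNAs 76 instead of 82. The ratio of miR-142a-5p to miR-1a-3p kept its difference of -1.60 under the block (exact sign-flip p = 0.125, the smallest of 16 arrangements).

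With 4 libraries a group, the exact test cannot go below 0.0286. miR-142a-3p and miR-223-3p, at 19 to 218 counts, carry counting errors up to 22.9%. Which scaling holds cannot be told from these counts, so absolute directions of the 7 miRNAs rest on it, while distances from the median of all tested miRNAs and the within-library ratios do not.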
